A study of Mus musculus and Bos taurus with 6 samples.

Results

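SOX9 peaks were described along a pair of largely homologous, gene-rich chromosomes of the fetal testis: mouse chromosome 11 from 46000000 to 110900000 bp (build mm9), called the mouse interval below, and the whole of cattle chromosome 19 (build UMD3.1). A mouse peak was counted when its midpoint fell in that interval. The mouse interval held 376 peaks of the 6419 in the mouse list, and cattle chromosome 19 held 731 of the 11988 in the bovine list. Together they made up 1107 of 18407 peaks. Chromatin came from fetal testes of swiss OF1 mice at E13.5 and of Holstein cattle 90 days after fertilization. A rabbit antibody against SOX9 was used on both species, and the libraries numbered 2 SOX9 and 1 input (sheared chromatin without immunoprecipitation) per species. The tissue is whole gonad, so that all cell types of the testis contribute chromatin. Each species is represented by 1 peak list for all its libraries, which leaves no value per library, no spread between replicates and no known read depth.

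SOX9 is the transcription factor under which gonadal supporting cells take the Sertoli fate. Sertoli cells enclose the germ cells and organise the testis cords. SOX9 binds DNA through an HMG box, which bends the DNA it contacts, and often acts in pairs or beside other factors at enhancers and promoters. In this tissue it is known for switching on the hormone and signalling genes by which Sertoli cells direct the other cells of the gonad, and for holding the ovarian programme in check.

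The chromosomes compared here descend largely from 1 ancestral block. As background, that block carries Trp53, the p53 tumour suppressor gene, Brca1, a DNA repair gene, the Hoxb cluster of body-patterning genes, and Col1a1, a chain of type I collagen. Sox9 itself is also on it, but lies beyond the end of the mouse interval. All of them are on mouse chromosome 11 in the RefSeq table. The homology is not complete: the cytokine genes Il4, Il5 and Il13, also on mouse chromosome 11, are known to have their counterparts on another cattle chromosome. Neither build's genome or annotation was used, so that no gene was placed under a peak, windows were not matched between the species gene by gene, and the sequence under the peaks was not analysed.

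The rule's borders on the mouse chromosome fell in stretches with few peaks. The last peak before the interval lay from 45979628 to 45980165 (538 bp wide) and the first inside it from 46125159 to 46126458 (1300 bp). The last peak inside lay from 110241087 to 110241854 (768 bp) and the next one outside from 112643525 to 112644533 (1009 bp). On cattle chromosome 19 the first peak began at 4737283 and the last ended at 63908759.

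SOX9 peaks were denser on both stretches than in the rest of their own list. The mouse interval held 5.79 peaks per Mb (95% exact Poisson interval 5.22 to 6.41) and the rest of the mouse list 2.55 (2.49 to 2.62). The ratio was 2.27 (exact conditional interval 2.04 to 2.52, two-sided exact binomial test adjusted over both species, p = 6.3e-43). Cattle chromosome 19 held 12.4 peaks per Mb (11.5 to 13.3) and the rest of the bovine list 4.38 (4.30 to 4.46). The ratio was 2.82 (2.62 to 3.04, adjusted p = 2.2e-122 by the same exact test). The rest of each list included the X, with only 0.128 peaks per Mb in mouse and 1.31 in cattle. This lowers the density of the rest, and ratios without the X were not computed. Both stretches were proposed with their densities already known, so the p-values are no independent evidence. They cover counting error only, and neighbouring peaks are not independent. A quasi-Poisson fit over all 1 Mb windows, which takes the spread between windows as its error, gave wider intervals, from 1.88 to 2.77 around 2.28 in mouse and from 2.34 to 3.37 around 2.81 in cattle.

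Cattle chromosome 19 carried 2.13 times as many peaks per Mb as the mouse interval (1.88 to 2.42). The rest of the bovine list exceeded the rest of the mouse list by 1.71 times (1.66 to 1.77). Relative to its own list, the cattle chromosome was 1.24 times as enriched as the mouse interval (1.09 to 1.42, exact conditional test of counts, two-sided p = 0.00081). With the spread between windows as the error (quasi-Poisson fit), the ratio was 1.23 with an interval from 0.932 to 1.63, which includes no difference, and among the widest 50% of peaks the ratio was 1.19 (0.981 to 1.43). The cattle span ran from the first to the last peak, while the mouse interval was taken at its full length. Counted from the chromosome start, cattle density was lower, at 11.4 per Mb, which would lower these ratios. They were not recomputed at that setting. Depth, peak calling, stage and species change together between the lists and cannot be told apart.

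The autosomes nearest to each stretch in density were chosen for their density, so that the direction of these ratios was fixed and no test is given. The mouse interval was 1.41 times as dense as mouse chromosome 19 (counting interval 1.20 to 1.67) and 1.74 times as dense as chromosome 9 (1.51 to 2.01). With the spread between windows as the error the intervals were 1.06 to 1.94 and 1.37 to 2.27. Cattle chromosome 19 was 1.21 times as dense as chromosome 25 (1.07 to 1.36) and 1.29 times as dense as chromosome 18 (1.16 to 1.44). The window-based intervals, 0.837 to 1.72 and 0.964 to 1.68, included equal densities in both cases. The part of mouse chromosome 11 outside the interval held 176 peaks at 3.29 per Mb (2.82 to 3.81). Of these, 94 lay before the interval and 82 after it, in a shorter stretch. The pooled value is thus below the density after the interval. That density was not computed by itself, and it was not tested against the interval's.

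Along the mouse interval, density varied by block of 10 Mb without a steady trend. The first stretch, from 46 to 50 Mb, held 12 peaks or 3.0 per Mb (1.55 to 5.24). The stretch from 70 to 80 Mb was the fullest, with 78 peaks or 7.80 per Mb (6.17 to 9.73), and the one from 100 to 110 Mb followed with 71 peaks or 7.10 (5.55 to 8.96). Between them, the stretch from 80 to 90 Mb held 43 peaks or 4.30 per Mb (3.11 to 5.79). The intervals of neighbouring blocks overlapped except at the step from 70 to 80 Mb down to 80 to 90 Mb. Up to 60 Mb the density was 4.93 per Mb (3.83 to 6.24) and beyond it was 6.03 (5.38 to 6.75), a ratio of 1.22 with an interval from 0.940 to 1.61.

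Cattle chromosome 19 had a dense middle, and a beginning and an end that were sparser than this middle. Between the first peak and 10 Mb it held 41 peaks, or 7.79 per Mb (5.59 to 10.6), and the stretch from 10 to 20 Mb held 62 or 6.20 per Mb (4.75 to 7.95). From 20 to 30 Mb it held 180 peaks or 18 per Mb (15.5 to 20.8), and the interval did not overlap with that of the block before. The 3 blocks from 30 to 60 Mb held 135, 164 and 135 peaks. Beyond 60 Mb it held 14 peaks, or 3.58 per Mb (1.96 to 6.01). The rest of the bovine list held 4.38 per Mb (4.30 to 4.46). That is below the intervals of both blocks before 20 Mb and within that of the end.

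**Figure D1:**
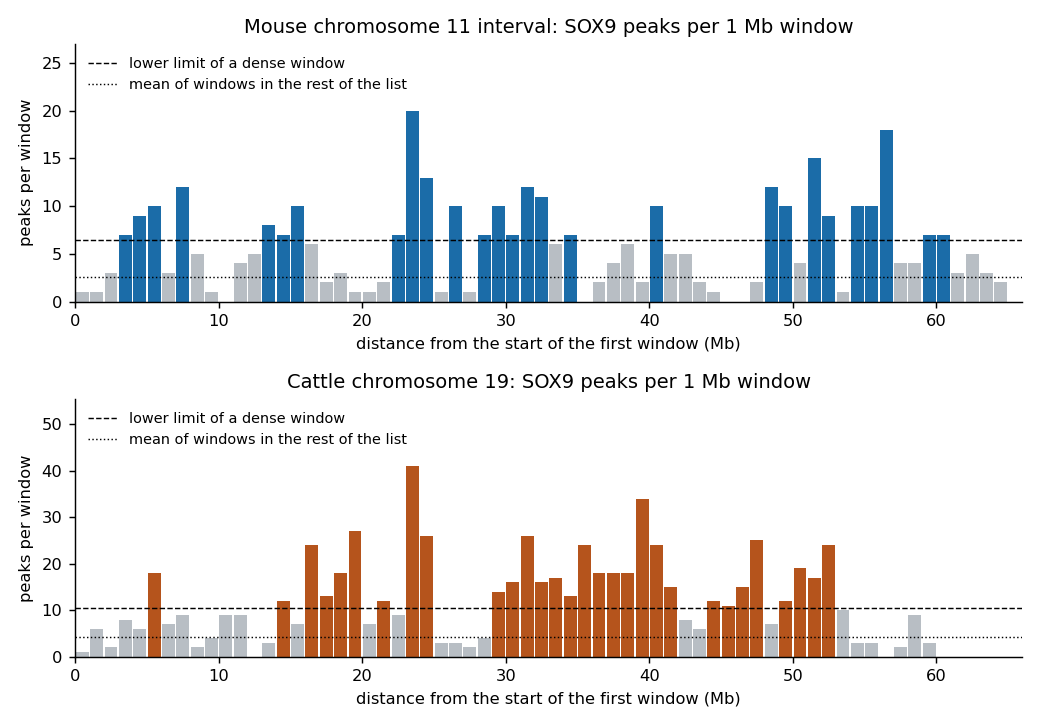
SOX9 peaks per 1 Mb window (y axis, peaks) against the distance from the start of the first window (x axis, Mb) for the mouse interval (65 windows) and cattle chromosome 19 (60 windows), with different y scales. Coloured bars are dense windows, the dashed line their lower limit (7 peaks in mouse, 11 in cattle) and the dotted line the mean of windows in the rest of the list; dense windows stand in 12 separate runs in mouse and in 8 runs in cattle, the longest of 13 windows.

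Many of the 1 Mb windows of both stretches were among the fullest of their list. A window was called dense when it held at least as many peaks as the 90th percentile of all windows in its list, which was 7 peaks in mouse and 11 in cattle. In the mouse interval 27 of 65 windows were dense, or 41.5% (exact binomial interval 29.4 to 54.4%), against 11.1% of all 2449 windows of the mouse list. Of the 60 windows of cattle chromosome 19, 30 were dense, or 50% (36.8 to 63.2%), against 10.5% of all 2657 windows of the bovine list. Dense windows held 275 of the mouse peaks (73.1%) and 579 of the cattle peaks (79.2%), against 37.5% and 36.4% in the rest of the lists.

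Windows without a peak were few. The mouse interval had 4 (6.15%, interval 1.70 to 15.0%), where 30.3% of all mouse windows were empty. Cattle chromosome 19 had 2 (3.33%, 0.406 to 11.5%), where 20.1% of all bovine windows were empty. As on the other bovine chromosomes, windows before the first peak, here at 4737283, were not counted. Counting them would raise the empty share of chromosome 19 and lower its dense share. All windows of a list include those of its sparsely bound X. The median window held 5 peaks in the mouse interval (quartiles 2 and 9), against 2 in the rest of the list, and 10.5 on the cattle chromosome (quartiles 5.5 and 18), against 3. Counts above the mean of windows in the rest of the list were found in 45 of the 65 mouse windows and in 45 of the 60 cattle windows, that is 69.2% and 75%, against 38.7% and 36.7% of all windows of the mouse and the bovine list.

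Measured by SD over mean, the windows of the 2 stretches varied by similar amounts. This coefficient of variation of the counts was 0.782 in the mouse interval and 0.735 on the cattle chromosome, against 1.17 in the rest of each list. It tends to be lower where mean counts are higher. The variance over the mean was 3.54 in the mouse interval and 3.44 in its rest. On the cattle chromosome it was 6.58, and 5.91 in its rest. By that measure neither stretch was more even than its rest. The fullest window held 3.46 times the mean count in mouse and 3.37 times in cattle. The fullest 10% of windows held 27.1% of the mouse peaks and 24.5% of the cattle peaks, against 36.9% and 37.4% in the rest. Differences in spread between the stretches and the rest were not tested.

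The fullest mouse window, from 69000001 to 70000000, held 20 peaks and was the fullest of the whole mouse list. Its peaks measured from 635 to 1625 bp (median 952.5 bp), lay between 69048980 and 69814785, and 10 of them had a neighbour within 10 kb. The window after it, from 70000001 to 71000000, held 13 peaks of which none had a neighbour within 10 kb. The second-fullest window, from 102000001 to 103000000, held 18 peaks with a median width of 986 bp, and all 18 lay between 102045988 and 102680944. In it 10 peaks had a close neighbour and 4 stood less than 500 bp from another. The windows from 97000001 to 98000000 with 15 peaks and those starting at 53000001, 77000001 and 94000001 with 12 each completed the named set.

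The fullest cattle window on the chromosome, from 27000001 to 28000000, held 41 peaks, the second-highest count of the bovine list. They measured from 737 to 2980 bp (median 1228 bp), covered 53.0 kb of the window, and 25 of them (61.0%) had a neighbour within 10 kb. The window after it held 26 peaks, of which 14 had such a neighbour. The window from 43000001 to 44000000 held 34 peaks, with a median width of 1057.5 bp and 24 peaks (70.6%) with a close neighbour. The windows from 23000001 to 24000000 with 27 peaks and from 35000001 to 36000000 with 26 were the other named ones. In both species the fullest window was thus followed by another of the named windows.

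Dense windows stood in longer unbroken runs on the cattle chromosome. Its longest run went from 33000001 to 46000000, that is 13 windows in a row with 13 to 34 peaks each, and held 253 peaks or 34.6% of the chromosome's total. Next came runs of 4 windows from 20000001 to 24000000 (82 peaks), from 53000001 to 57000000 (72 peaks) and from 48000001 to 52000000 (63 peaks). In the mouse interval the longest run went from 74000001 to 79000000, 5 windows with 7 to 12 peaks each and 47 peaks in all. The mean run was 2.25 windows in mouse (12 runs) and 3.75 in cattle (8 runs). The rank correlation between the counts of adjacent windows was 0.31 over 64 pairs in the mouse interval and 0.51 over 59 pairs on the cattle chromosome, against 0.41 and 0.44 over 2364 and 2568 pairs in the rest of the lists. These are descriptions of 1 list each, and their order is not stable: with window boundaries shifted by 0.5 Mb they were 0.45 in mouse and 0.44 in cattle, and over the whole of mouse chromosome 11 the value was 0.53.

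The longest stretch without any peak in the mouse interval spanned 3.20 Mb, from 90549328 to 93746157, and contained the only run of 2 empty windows. It was followed by 2.44 Mb from 55018360 to 57458173 and 1.68 Mb from 46126459 to 47801749. The longest gap between neighbouring peaks on cattle chromosome 19 spanned 2.32 Mb, from 59498422 to 61814362, in the sparser end. The stretch before its first peak, at 4737283, is longer but was not counted as a gap. The next gaps were 1.41 Mb from 15859799 to 17267448 and 1.11 Mb from 6439888 to 7549846, both in the sparser beginning. Elsewhere, the longest gap was 16.6 Mb in the mouse list (on the X) and 13.6 Mb in the bovine list.

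Peaks stood closer together than in the rest of the lists. The median gap between neighbouring peaks was 84.5 kb in the mouse interval (95% interval of the median 74.4 to 95.4 kb) and 133.8 kb in the rest of the mouse list. For cattle chromosome 19 it was 28.1 kb (24.2 to 32.6 kb), against 69.4 kb in the rest of the bovine list. A neighbour within 10 kb, edge to edge, was found for 69 of 376 mouse peaks, or 18.4% (14.6 to 22.6%), against 14.9% of the whole mouse list. In the rest of the mouse list the share was 14.7% (13.8 to 15.6%), and the 2 intervals overlapped. Of the 731 peaks of cattle chromosome 19, 318 had such a neighbour, or 43.5% (39.9 to 47.2%), against 30.3% of the whole bovine list and 29.4% (28.6 to 30.2%) of its rest.

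Both stretches exceeded the rest of their lists at distances between 500 bp and 10 kb. In the mouse interval 59 peaks, or 15.7% (12.2 to 19.8%), had their nearest peak at that distance, where the whole list had 8.44% and the rest 7.99%. The cattle chromosome had 234 such peaks, or 32.0% (28.6 to 35.5%), where the whole list had 18.7% and the rest 17.9%. The ratio to the rest was 1.96 in mouse and 1.79 in cattle. By chromosome, only the shares within 10 kb and under 500 bp were computed, and the excess was not particular to these stretches. Cattle chromosome 25 had 47.8% and 11.9%, and the rest of mouse chromosome 11 had 22.7% and 7.95%. Other autosomes near in density had lower shares within 10 kb than the stretches. These were 37.1% on cattle chromosome 18, and 14.3% and 14.7% on mouse chromosomes 19 and 9.

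For adjoining peaks, less than 500 bp apart, no such excess was seen. In the mouse interval 10 of 376 peaks adjoined another, or 2.66% (1.28 to 4.84%), against 6.47% of the whole list and 6.70% (6.08 to 7.36%) of its rest. The interval thus had the lowest share among the 19 autosomal stretches of the mouse list and the highest density. In this ranking the flanks before and after the interval were pooled as a single stretch. The exact interval of this share overlapped with those of some stretches but not all. Chromosome 15, with 3.73% (1.88 to 6.57%), overlapped. So did the autosomes nearest in density, chromosome 19 with 4.20% (2.03 to 7.59%) and chromosome 9 with 4.49%. Chromosome 5, with 9.17% (6.64 to 12.28%), did not. Among the 731 cattle peaks 84 adjoined another, or 11.5% (9.27 to 14.03%), with 11.5% in the whole list and in its rest. Merging the peaks under 500 bp apart lowered the share of cattle peaks with a neighbour within 10 kb from 43.5% to 36.1%.

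**Figure D2:**
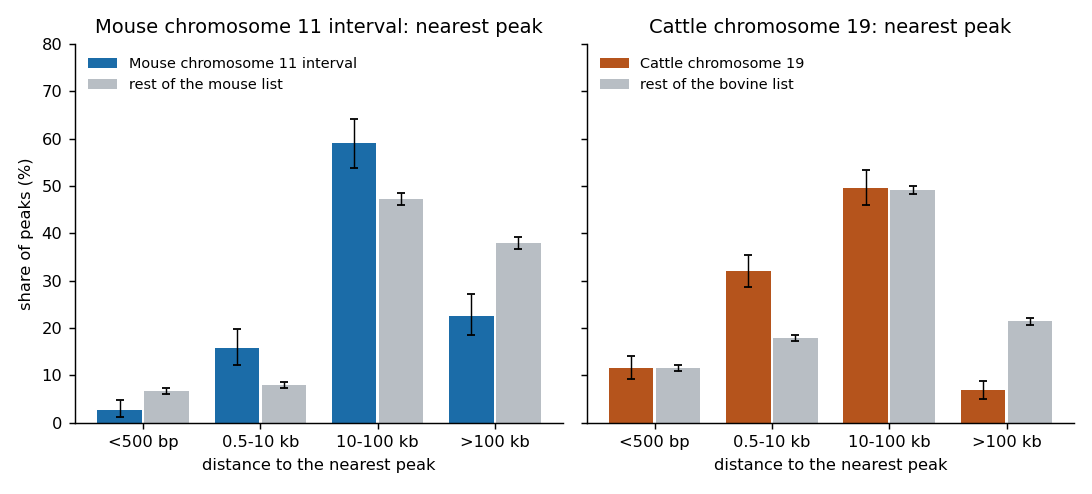
Share of peaks (y axis, %) by distance to the nearest peak (x axis, 4 classes), for the mouse interval and cattle chromosome 19 (coloured) and the rest of each list (grey), with exact 95% binomial intervals as error bars. In both species the class from 500 bp to 10 kb is higher than in the rest (15.7% against 7.99% in mouse, 32.0% against 17.9% in cattle) and the class over 100 kb is lower, while the share of adjoining peaks is 2.66% against 6.70% in mouse and 11.5% in both sets in cattle.

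Isolated peaks were fewer. Peaks more than 100 kb from any other made up 22.6% of the mouse interval (18.5 to 27.2%) and 37.9% of the rest of its list. They made up 6.84% of cattle chromosome 19 (5.12 to 8.92%) and 21.4% of the rest.

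The shares were also set against those of dense windows elsewhere. In dense windows of the mouse interval 22.2% of peaks had a neighbour within 10 kb (17.4 to 27.6%), and in dense windows of the rest 20.1% (18.5 to 21.8%), at 10.2 and 9.28 peaks per window. In dense windows of cattle chromosome 19 the share was 47.5% (43.4 to 51.7%), above the 39.3% (37.8 to 40.8%) of dense windows elsewhere, which held 16.5 peaks each against 19.3. In windows that were not dense, it was 28.3% on the cattle chromosome (21.3 to 36.2%) and 23.7% in the rest (22.8 to 24.7%). The low share of adjoining peaks in the mouse interval was also seen in its dense windows, at 2.91% (1.26 to 5.65%) against 7.33% (6.29 to 8.48%) in dense windows of the rest.

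The same shares were set against density over the chromosomes of each list, with no test of a difference between species. Over 29 bovine autosomes the rank correlation between density and the share of peaks with a neighbour within 10 kb was 0.63. Cattle chromosome 19 ranked first of 30 chromosomes in density and second in that share, after chromosome 25 with 47.8%. Over 19 mouse stretches (18 autosomes, with chromosome 11 in 2 parts and chromosome 16 not analysed here) the correlation was 0.16, and the interval ranked second to the rest of chromosome 11, at 22.7%. For adjoining peaks the correlation with density was -0.57 in mouse and -0.21 in cattle. The points of a species share 1 list and its calling, and these correlations are descriptions.

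**Figure D3:**
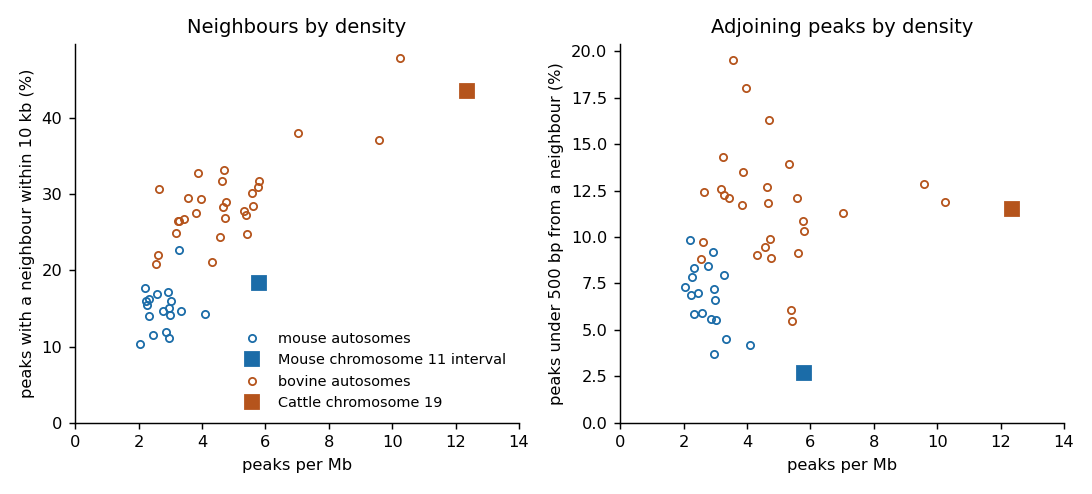
Left, share of peaks with a neighbour within 10 kb (y axis, %) and, right, share less than 500 bp from a neighbour (y axis, %), both against peaks per Mb (x axis), 1 point per autosome or part of mouse chromosome 11. The mouse interval (blue square) and cattle chromosome 19 (orange square) are the densest points of their species; on the right the mouse interval is the lowest point, at 2.66%, and cattle chromosome 19 lies in the middle of its species, at 11.5%.

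Clusters, meaning groups of at least 2 peaks with gaps of up to 10 kb, were mostly pairs on both stretches, and larger ones took a greater share on the cattle chromosome. The mouse interval held 33 clusters, 0.508 per Mb (0.350 to 0.714), against 0.179 in the rest. Of these, 30 were pairs and 3 held 3 peaks. Cattle chromosome 19 held 134 clusters, 2.26 per Mb (1.90 to 2.68), against 0.582 in the rest. Of these, 95 were pairs, 31 held 3 peaks, 5 held 4 and 3 held 5. Clusters of at least 3 peaks made up 9.09% of clusters in the mouse interval (1.92 to 24.3%) and 8.98% in its rest, and 29.1% on cattle chromosome 19 (21.6 to 37.6%) against 16.4% (14.5 to 18.3%) in its rest.

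The 3 largest mouse clusters differed in their layout. The first, from 77990805 to 78008969, spread 3 peaks of 2059, 1528 and 1040 bp over 18.2 kb. The second, from 102178116 to 102182136, held peaks of 751, 1358 and 933 bp within 4.02 kb, with gaps of 146 and 833 bp. The third, from 102298667 to 102317713, held peaks of 908, 1497 and 930 bp over 19.05 kb, with gaps of 8177 and 7535 bp. Both of the latter lay in the window of 18 peaks.

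The 3 largest cattle clusters held 5 peaks each. The first, from 27892498 to 27926529, spread its peaks of 994 to 1483 bp over 34.0 kb, with gaps of 2144 to 9590 bp, and lay in the window of 41 peaks. The second, from 38164967 to 38180838, ended in 3 peaks of 2182, 1278 and 1079 bp that were separated by only 103 and 78 bp. The third, from 51964238 to 51980786, held peaks of 680 to 1536 bp over 16.5 kb and included 1 gap of 201 bp. The 3 clusters thus ranged from spaced peaks, with no gap under 2 kb, to nearly contiguous ones.

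Peak widths were close to those of the rest of each list. The median width was 938 bp in the mouse interval (95% interval of the median 891 to 999 bp, quartiles 738.5 and 1257.5 bp) and 954 bp in the rest (943 to 965 bp). For cattle chromosome 19 it was 1165 bp (1138 to 1215 bp, quartiles 948 and 1436.5 bp) and in the rest 1226 bp (1217 to 1235 bp), so that the intervals lay just apart. Of the mouse peaks 183, or 48.7% (43.5 to 53.8%), were wider than the median of the whole list, against 49.9% of that list. Of the cattle peaks 336, or 46.0% (42.3 to 49.7%), were, against 50% of the bovine list. In all, peaks took up 0.597% of the sequence of the mouse interval and 1.51% of that of the cattle chromosome, against 0.260% and 0.551% of the rest.

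Widths showed no steady trend along either stretch. Medians of the 10 Mb blocks with over 40 peaks went from 849 bp (80 to 90 Mb) to 1079 bp (90 to 100 Mb) in mouse and from 1137 bp (30 to 40 Mb) to 1270.5 bp (10 to 20 Mb) in cattle, with intervals that overlapped between the lowest and the highest block in each species. Peaks in dense windows had a median of 937 bp against 956 bp for the other mouse peaks, and of 1158 bp against 1207.5 bp for the other cattle peaks. The intervals overlapped in both, and with window boundaries shifted by 0.5 Mb the mouse difference turned from -19 to 39 bp.

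Median widths were lowest for adjoining peaks and highest for isolated ones, by less than their intervals. In cattle the median went from 1073.5 bp for adjoining peaks (1001 to 1195 bp) over 1150 and 1199 bp to 1232.5 bp for peaks more than 100 kb from any other (1039 to 1376 bp). In the mouse interval it was 887.5 bp for the 10 adjoining peaks (680 to 1358 bp) and 1024 bp for the 85 isolated ones (893 to 1202 bp). The intervals of the lowest and the highest class overlapped in both stretches. Across peaks, the rank correlation of width with distance was 0.11 over 376 mouse and 0.097 over 731 cattle peaks, and 0.15 and 0.19 in the rest of the lists.

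**Figure D4:**
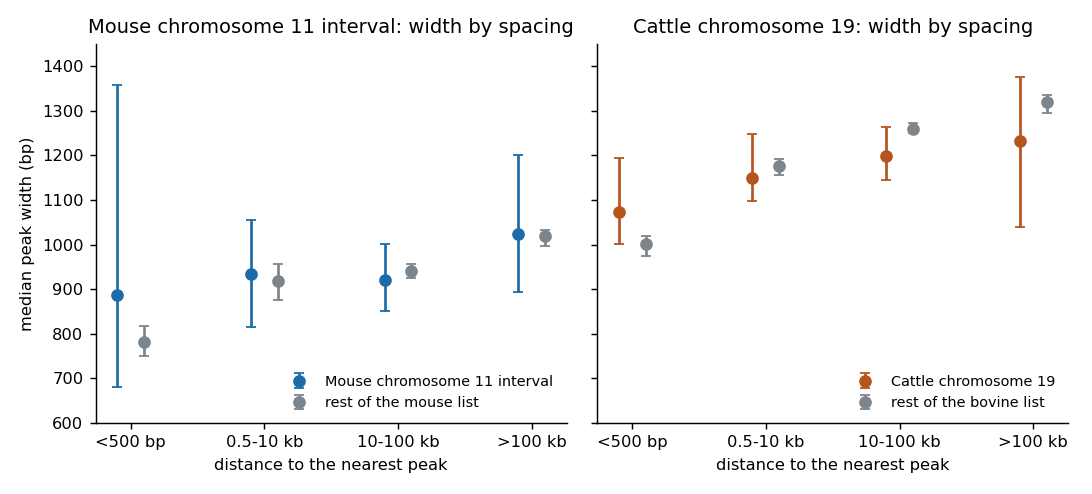
Median peak width (y axis, bp, not starting at 0) by distance to the nearest peak (x axis, 4 classes) for the mouse interval and cattle chromosome 19 (coloured) and the rest of each list (grey), with exact 95% intervals of the median as error bars. Isolated cattle peaks have a median of 1232.5 bp on chromosome 19 and 1319 bp in the rest of the list, and the intervals of the 2 stretches are wide where peaks are few.

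Of the mouse interval's peaks, 11 were over 2000 bp wide, or 2.93% (1.47 to 5.17%), against 2.21% of the whole list. Cattle chromosome 19 had 27 of them, or 3.69% (2.45 to 5.33%), against 4.32% of the bovine list. The widest mouse peak of the interval, 3535 bp from 51669180 to 51672714, was the fourth widest of the mouse list and stood 56.4 kb from its nearest neighbour. It was followed by peaks of 2426 bp (107329914 to 107332339), 2206 bp (95867282 to 95869487), 2188 bp (100830272 to 100832459) and 2155 bp (100275251 to 100277405). Among these 5, only the peak of 2206 bp had a neighbour within 10 kb, at 311 bp.

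Of the 5 widest peaks of cattle chromosome 19, 4 had a neighbour within 10 kb. The widest, 2980 bp from 27667593 to 27670572, ranked 23rd in the bovine list, lay in the window of 41 peaks and had its nearest neighbour 10.8 kb away. The next 4 were 2861 bp (21405115 to 21407975), 2736 bp (23944844 to 23947579), 2514 bp (32828167 to 32830680) and 2343 bp (54644636 to 54646978). Their nearest neighbours lay 1126, 47, 9 and 810 bp away. Of the 27 cattle peaks over 2000 bp on the chromosome, 12 had a neighbour within 10 kb, or 44.4% (25.5 to 64.7%), against 19.6% (16.1 to 23.3%) of the 491 such peaks in the rest of the list. Over all widths the share on the chromosome was 43.5%. In the mouse interval 2 of the 11 peaks over 2000 bp had such a neighbour, or 18.2% (2.28 to 51.8%). The share was 15.3% (9.58 to 22.6%) of the 131 such peaks in the rest of the mouse list.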

How the data were processed

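Each species has 1 deposited peak list with no header, which the labels name for both SOX9 libraries and the input. The authors deposited chromosome, start, end and a further value that was checked to equal end minus start in every line, the peak width. Builds are mm9 and UMD3.1, per the submitters' processing notes, and which build belongs to which list was inferred from the species. Aligner, peak caller, threshold and pooling: not given in the sources used here; depth is unknown. Mouse chromosome 16 was not analysed here. Positions are printed counted from 1.

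Density was peaks per Mb, over 64.9 Mb in mouse and over the span from first to last peak elsewhere (59.2 Mb on cattle chromosome 19). Windows of 1 Mb start at the chromosome start, peaks count by midpoint, and only windows touching the span from first to last peak were used. Rates were compared by exact conditional tests, and the enrichments of the species by an exact test on Fisher's noncentral hypergeometric distribution, with Python 3.11.15, scipy 1.17.1, pandas 2.3.3 and statsmodels 0.14.6 (quasi-Poisson fits, added after the lists had been seen). Widths, windows and spacing have intervals only. All intervals are at the 95% level. They cover counting error only, except those of the quasi-Poisson fits, which take the spread between windows as their error. The rate test was tried on simulated independent Poisson counts only. That trial cannot show how the test behaves where neighbouring peaks are not independent, as here. Members, windows and regions to be named (the 5 widest peaks, 5 fullest windows with ties, largest clusters, 3 longest gaps and longest runs per species) were chosen with earlier results of these data known. The planned motif search was not run.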

Additional observations from a re-analysis of the deposited data

Results flagged for a closer look

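Whether the density relative to the rest of the list differs between the species depends on the error used. With the spread between 1 Mb windows as the error, cattle chromosome 19 was 1.23 times as enriched in its list as the mouse chromosome 11 interval in its own, with an interval from 0.932 to 1.63, and the difference was not called. With peaks counted as independent the ratio was 1.24 (interval 1.09 to 1.42, exact conditional test of counts, two-sided p = 0.00081), the enrichments being 2.82 and 2.27. Peaks of 1 list are not replicates of a species, so that this p covers counting error only. Depth and calling cannot be told apart from species and stage in these lists.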

How the results depend on the processing

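Of 116 alternative values, 89 kept their side of the threshold or stayed within the 95% interval of the reported value, 25 moved, 2 lost their call and 0 called values reversed. The mouse difference in width between dense and other windows, -19 bp and not called, was 39 bp with window boundaries shifted by 0.5 Mb. The enrichment over the rest of the list kept its direction and call in each alternative tried. The ratio of the 2 enrichments lost its call among the widest 50% of peaks (1.19, interval 0.981 to 1.43) and in the quasi-Poisson fit over windows (1.23, interval 0.932 to 1.63). Keeping the widest 50% of peaks lowered the densities to 2.82 per Mb in mouse and 5.77 in cattle and the shares with a neighbour to 11.5% and 22.0%, and gave median widths of 1274 and 1453 bp, which follows from its construction. Joining peaks under 500 bp apart gave a cattle median width of 1224 bp and a neighbour share of 36.1%. The whole of mouse chromosome 11 held 4.66 peaks per Mb with 16.0% of windows empty, and the cattle to mouse ratio of density became 2.65. A start at 60 Mb moved none of the values. With a neighbour distance of 5 kb the shares were 11.4% in mouse and 29.3% in cattle, and with 20 kb 30.1% and 61.0%. Empty windows made up 20% in mouse with windows of 0.5 Mb and 0% in both species with 2 Mb. Counted from the chromosome start, cattle density was 11.4 per Mb, and no ratio was recomputed at that setting. That setting and the quasi-Poisson fits were chosen after seeing the data. No paired analysis was possible because the replicates of a species share 1 list, which also prevented leaving out a replicate. The motif alternative was not run, for want of a genome of either build. Peaks too shallow to be called cannot be seen in either list.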

Other observations

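The adjoining peaks of the mouse interval were unevenly placed, a split chosen after the values were seen. From 46 to 80 Mb, 0 of 206 peaks lay less than 500 bp from a neighbour, with an exact interval from 0 to 1.77% (3 counts of the total would be 1.46%). Beyond 80 Mb 10 of 170 did, or 5.88% (2.86 to 10.6%), close to the 6.47% of the whole mouse list. Peaks with a neighbour within 10 kb numbered 35 of 206 and 34 of 170 in the same stretches, where 14.9% of the whole list had one.

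The median width within single windows of at least 5 peaks ranged from 686.5 to 1317 bp over 35 mouse windows and from 905 to 1580 bp over 45 cattle windows. Before the first peak of cattle chromosome 19 no window was counted, and whether peaks of that stretch were set aside before this work is not known.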
